A study of Mus musculus with 6 samples.

Results

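Trp63, Snai2 and Mkx encode transcription factors, and the 3 genes were described here in mammary epithelial cells (MECs) with and without oestrogen receptor α (ERα). They were chosen by name out of the 651 genes in the deposited tables, with earlier results of these data known. Both tables hold genes that differed between the genotypes in the authors' comparison, so the presence of the 3 genes there, and their direction, is what selected them and not a finding. WT.GFP+ MECs and ERα−/−.GFP+ MECs were placed in the ducts of opposite glands of NSG hosts, which are severely immunodeficient females. The GFP+ cells were sorted from the pregnant hosts and their RNA was sequenced, in 3 samples of each genotype. WT.GFP+ cells carry an intact Esr1 gene. ERα−/−.GFP+ cells come from littermates with a germ-line deletion of ERα. Cells of both genotypes carry an actin-driven EGFP transgene, so GFP alone does not tell one epithelial cell type from another. Antibodies to CD24, CD49f, CD31, CD45 and Ter119 are listed for flow cytometry in the methods, and whether they gated these samples is not given in the sources used here. The hosts had their own ERα. Glands were pooled for cell suspensions, and the number of animals behind a sample is not given in the sources used here either. Each value is an authors' mean of the 3 samples that share a genotype. The spread between samples was therefore not analysed here, and the comparisons are descriptions with no test of their own. Intervals cover counting error only, and reads amplified by PCR without molecular identifiers are not independent molecules.

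The column headers of the deposited tables name the groups only as selections. Selection 1 was read as WT.GFP+ and selection 2 as ERα−/−.GFP+, because the study describes most of its changed genes, keratinisation genes among them, as lower and immune genes as higher without ERα. The larger table, with Krt5, Krt14 and Krt17, is lower in selection 2, and the lymphocyte genes given with the markers are higher there. Directions are thus taken from the study and are not independent results. The study itself names P63 and Snai2, with Krt5 and Frizzled7, as basal markers among the genes that differed most. Esr1 is in neither table, so the deleted gene itself does not check the reading. The lists themselves are named in the opposite sense, with the larger as up-regulated. With this reading, 566 listed genes had a lower level without ERα and 85 a higher one. Mean depth was 27190483 reads in WT.GFP+ samples and 29326709 reads in ERα−/−.GFP+ samples, as estimated from the ratio of mean counts to mean CPM, the count scaled to a library of 1000000 reads. A list of basal and myoepithelial markers was drawn up with earlier results of these data known. These markers were present in both genotypes and lower in ERα−/−.GFP+ MECs for 8 of 8 genes, as were 86.9% of all listed genes. Of 9 transcription factors of mammary basal cells, described below, 6 were in neither table. The summed level of the 8 markers was 6053 CPM in WT.GFP+ and 1585 CPM in ERα−/−.GFP+ MECs. Lymphocyte markers were listed in the other direction, with 3 of 7 T-cell genes (Cd2, Cd5 and Trbc1) and 4 of 4 cytotoxic genes (Gzmb, Nkg7, Prf1 and Klrd1) higher in ERα−/−.GFP+ cells. The summed level of the 3 listed T-cell genes was 584 CPM in WT.GFP+ and 1214 CPM in ERα−/−.GFP+ cells, and that of the 4 cytotoxic genes was 2080 and 4751 CPM. Whether these samples were gated on CD45, which lymphocytes carry, is not given in the sources used here. The part of these genes in the results for Trp63, Snai2 and Mkx was not tested. Lists of 5 luminal, 7 fibroblast and 5 endothelial markers had 0 genes in either table. In these bulk samples, fewer cells of a type and less RNA per cell cannot be told apart.

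The mammary duct has an inner luminal layer and an outer layer of basal cells, which contract to eject milk and touch the basement membrane. Trp63 encodes p63, a member of the p53 family that basal cells of stratified and glandular epithelia need for their identity and adhesion. It is made from alternative starts, and the form without the full transactivation domain, which comes from the inner start, prevails in basal cells. Snai2 encodes SNAI2 (Slug), a zinc-finger repressor of the Snail family known from epithelial mesenchymal transition, and in the mammary gland it marks basal cells. Mkx encodes Mohawk, a homeodomain protein of the TALE class best known for its role in tendon differentiation.

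Trp63 (ENSMUSG00000022510) is a protein-coding gene on the plus strand of chromosome 16, from 25683763 to 25892102 in GRCm38. The GENCODE annotation gives it 8 transcripts, all protein coding, of which 4 begin at the first start and 4 at an inner start 118 kb downstream, at 25801916. Reads were counted per gene, so the values sum over both starts. The authors' mean count of Trp63 was 1942 reads in WT.GFP+ and 521 reads in ERα−/−.GFP+ MECs, from totals of 5827 and 1562 reads over the samples. Scaled for depth, its level was 71.4 CPM (95% exact Poisson interval 69.6 to 73.3) in WT.GFP+ and 17.8 CPM (16.9 to 18.7) in ERα−/−.GFP+ MECs. The ERα−/−.GFP+ level was thus 24.9% of the WT.GFP+ level, a 4.02-fold lower level with a counting interval of 3.80 to 4.26.

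Snai2 (ENSMUSG00000022676) lies on the same chromosome and strand, from 14705852 to 14709385, with 1 annotated transcript. Its mean count in the deposited table was 1895 reads in WT.GFP+ and 559.7 reads in ERα−/−.GFP+ MECs. Scaled for depth, Snai2 was at 69.7 CPM (67.9 to 71.5) in WT.GFP+ and 19.1 CPM (18.2 to 20.02) in ERα−/−.GFP+ MECs. That is 27.4% of the WT.GFP+ level, or 3.65-fold lower with a counting interval of 3.46 to 3.86. The CPM of Snai2 was thus close to that of Trp63 in each genotype.

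Mkx (ENSMUSG00000061013) is the least abundant of the genes. It lies on the minus strand of chromosome 18, from 6934518 to 7004780, with 4 annotated transcripts of which 2 are protein coding. Its mean count in the deposited table was 141 reads in WT.GFP+ and 23.3 reads in ERα−/−.GFP+ MECs, and the totals over the samples were 423 and 70 reads. The scaled level of Mkx was 5.19 CPM (4.70 to 5.70) in WT.GFP+ and 0.796 CPM (0.620 to 1.01) in ERα−/−.GFP+ MECs. The ERα−/−.GFP+ level was 15.3% of the WT.GFP+ level, 6.52-fold lower with a counting interval of 5.05 to 8.52. Both levels lay above the 0.110 and 0.102 CPM that 3 reads in a sample make in WT.GFP+ and ERα−/−.GFP+, so the ratio is not a bound against an undetected gene.

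**Figure D1:**
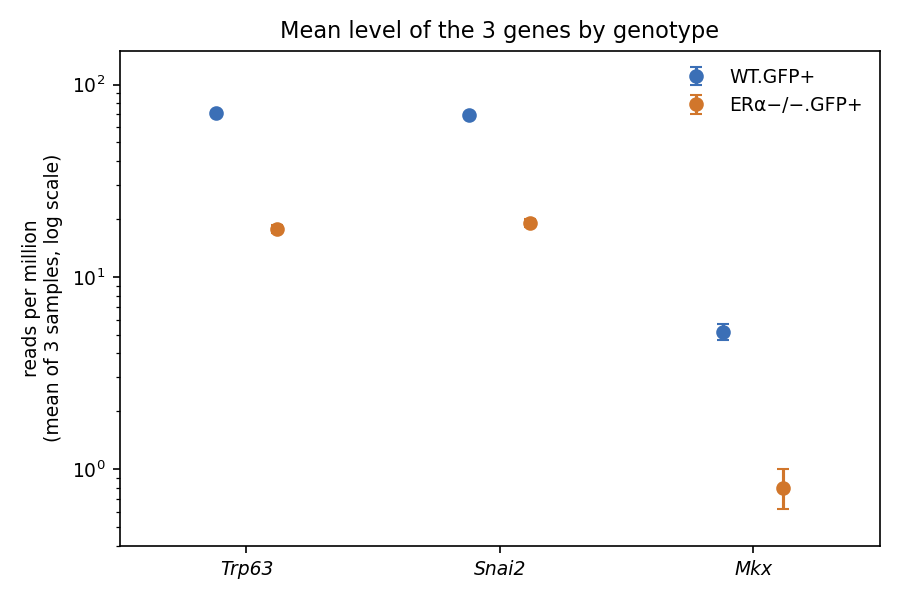
Mean level of Trp63, Snai2 and Mkx in CPM on a log scale (y axis), for WT.GFP+ (blue) and ERα−/−.GFP+ MECs (orange); points are means of 3 samples scaled for depth and bars are 95% exact Poisson intervals, which cover counting error only and are smaller than the points for Trp63 and Snai2. Trp63 (71.4 and 17.8 CPM) and Snai2 (69.7 and 19.1 CPM) sit at nearly the same heights, and Mkx (5.19 and 0.796 CPM) sits below them with the widest gap between genotypes.

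Levels were compared between the genes per length, as CPM per kilobase of annotated exon (RPKM). The merged exons span 8391 bases for Trp63, 2021 for Snai2 and 4095 for Mkx. The RPKM in WT.GFP+ MECs was 34.5 for Snai2, 8.51 for Trp63 and 1.27 for Mkx, and in ERα−/−.GFP+ MECs it was 9.44, 2.12 and 0.194. The order Snai2, Trp63, Mkx was the same in both genotypes. Whether neighbours in this order differ beyond the spread between samples could not be assessed from group means. Merged exons count the bases of every transcript, so the RPKM of Trp63, with transcripts from 2 starts, would be higher per length of any one of its transcripts.

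The sizes of the differences were compared among the genes on the log2 scale of scaled mean counts (ERα−/−.GFP+ over WT.GFP+). The log2 ratio was −2.01 for Trp63, −1.87 for Snai2 and −2.70 for Mkx. The ratio of Mkx was lower than that of Trp63 by 0.70 (counting interval 0.32 to 1.07) and lower than that of Snai2 by 0.84 (0.46 to 1.21). On the difference of the deposited mean log2 CPM, these gaps were 0.92 and 0.88, so Mkx had the lowest ratio of the 3 genes on both scales. Trp63 and Snai2 were not ordered in the same way on the scales. The ratio of Trp63 was lower by 0.14 from mean counts (counting interval of Trp63 minus Snai2, −0.25 to −0.03) but higher by 0.04 from mean log2 CPM, where Trp63 was at −1.82 and Snai2 at −1.86.

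The change of order came mainly from the WT.GFP+ value of Trp63. In that group the mean count gave 71.4 CPM and the mean log2 CPM gave 64.1 CPM, so that the former was 11.5% higher. A mean of counts exceeds a mean taken on the log scale by more when the samples of a group differ more, or when the deeper samples hold more of the gene. This excess was 4.10% for Snai2 and −0.48% for Mkx in WT.GFP+. Without ERα it was −1.92% for Trp63, 3.80% for Snai2 and 2.44% for Mkx. On the log2 scale the excess of Trp63 in WT.GFP+ was 0.16, the 12th largest of 431 lower genes whose mean count reached 100 there, whose median was 0.01. Snai2 was at position 85 and Mkx at 298 of these genes. Since the files hold group means only, whether any WT.GFP+ sample was high in Trp63 is not known here.

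**Figure D2:**
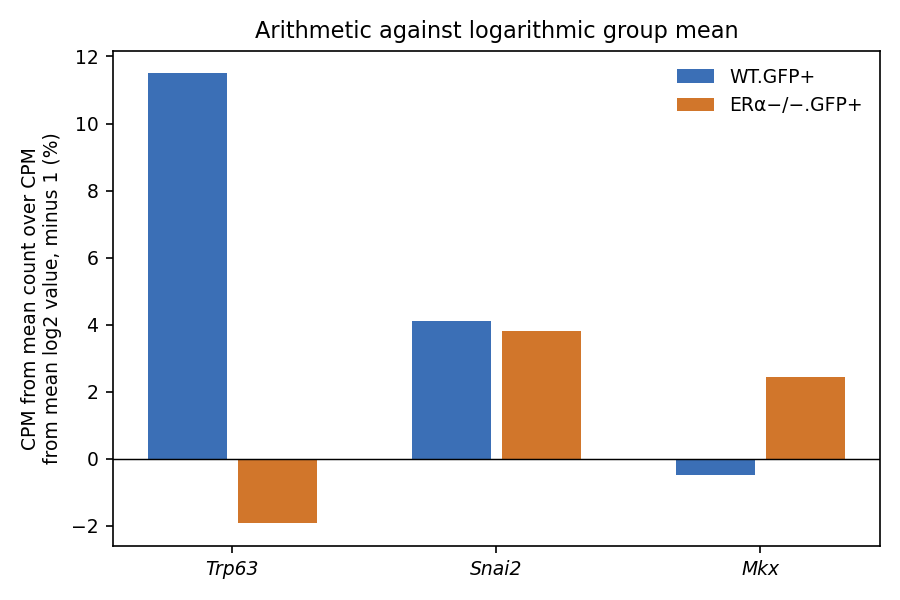
Percent by which the CPM from the mean count exceeds the CPM from the mean log2 value (y axis) for Trp63, Snai2 and Mkx in WT.GFP+ (blue bars) and ERα−/−.GFP+ MECs (orange bars); each bar is 1 value from group means, with no error. The bar of Trp63 in WT.GFP+ (11.5%) stands above the other 5, which lie between −1.92% and 4.10%.

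All 3 genes were in the lower table, as were 86.9% of all listed genes, and all 3 were more than 3-fold lower by scaled mean counts, as were 52.2% of all listed genes. The median log2 ratio of the 566 lower genes was −1.70, with quartiles of −1.97 and −1.41. Snai2 lay between the median and the lower quartile, and Trp63 and Mkx lay beyond that quartile. Ranked from the lowest ratio, Mkx was at position 37, Trp63 at 130 and Snai2 at 204 of the lower genes. Of the listed genes, 33 had a mean count of at most 1 in a group, which was set to a floor of 3 reads for these ratios, shares and ranks. The floor made their ratios less extreme and could rank such genes behind the 3 genes. From the difference of mean log2 CPM, without this floor, 363 listed genes were more than 3-fold lower, against 340 from scaled mean counts. Among the 479 lower genes whose mean count reached 10 in both groups, Mkx was at position 8, Trp63 at 73 and Snai2 at 139. Ranked by the difference of mean log2 CPM, Trp63 was at position 245, after Snai2 at 209, and Mkx was at 62.

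Ratios among the listed genes varied with the level of the gene, so each gene was set beside lower genes within 1 log2 unit of its own mean log2 CPM in WT.GFP+. Around Trp63 there were 138 such genes with a median log2 ratio of −1.48, and 5 of them had a lower ratio than Trp63. On the difference of mean log2 CPM this number was 30. Around Snai2, 26 of 136 genes had a lower ratio, and the median was −1.48. Around Mkx, 5 of 118 genes had a lower ratio than Mkx, and the median was −1.81.

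**Figure D3:**
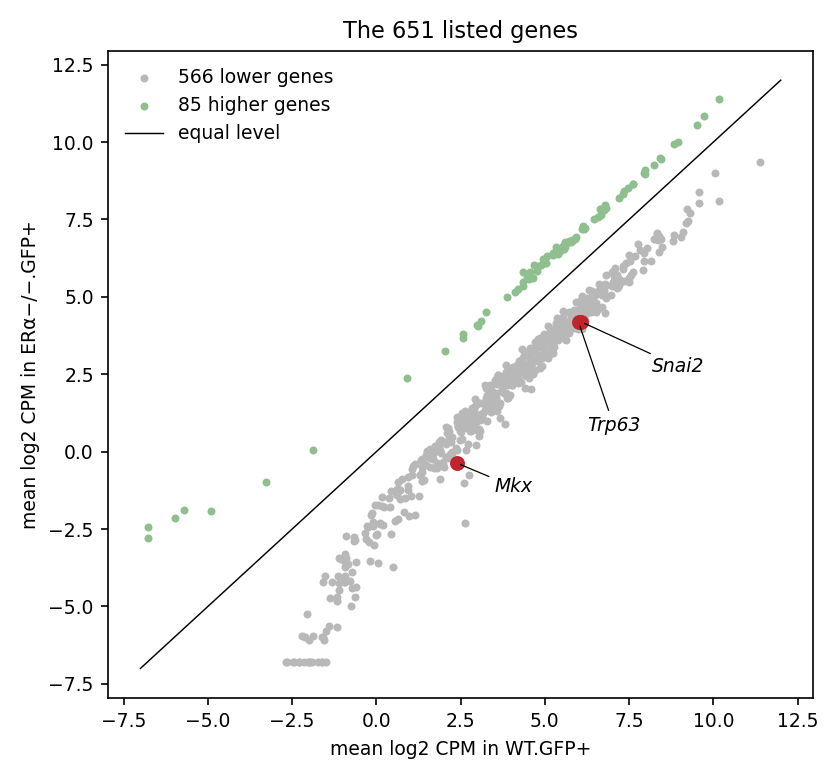
Mean log2 CPM in WT.GFP+ (x axis) against ERα−/−.GFP+ MECs (y axis) for the 566 lower (grey) and 85 higher (green) listed genes, with Trp63, Snai2 and Mkx in red and a line of equal level. Trp63 and Snai2 overlap, with Snai2 at 6.07 on the x axis and 4.20 on the y axis, and Mkx (2.38 and −0.36) lies among the lowest points of its WT.GFP+ level; genes near the line are absent because only genes past the authors' thresholds are listed.

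The genes with the pair of group means nearest to each gene were found by Euclidean distance on the mean log2 CPM of the 2 genotypes, a likeness over only 2 points. For Trp63 they were Col7a1, the collagen of anchoring fibrils, at a distance of 0.05, Tgfb1i1, which encodes the focal adhesion protein Hic-5, at 0.05, and Snai2 at 0.07. For Snai2 they were Trp63 at 0.07, Tgfb1i1 at 0.08 and Clca3a2 at 0.09. The values of Tgfb1i1 were 1768 and 512 reads in WT.GFP+ and ERα−/−.GFP+ MECs, against 1895 and 559.7 for Snai2. Mkx had no listed gene this near. Its nearest genes were Adamts20, a secreted metalloprotease, at 0.27, the channel gene Trpm3 at 0.32 and the monocarboxylate transporter gene Slc16a7 at 0.35.

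Well-known target genes of p63 were mostly in the lower table with Trp63. Of a list of 18 such genes, 14 were lower without ERα and 0 higher, and Itga6, Itgb4, Jag1 and Fras1 were in neither table. Among all 651 listed genes, 566 (86.9%) were lower, so a lower direction is the common one for any listed gene. Their median log2 ratio was −1.75, beside −1.70 over all 566 lower genes, and 8 of the 14 were more than 3-fold lower, beside 340 of the 566 (60.1%). The lowest ratio, −2.27, belonged to Col17a1, a hemidesmosomal collagen, at 112 CPM in WT.GFP+ and 23.2 CPM in ERα−/−.GFP+ MECs. The basal keratin genes Krt5 and Krt14 had ratios of −1.78 and −1.75, and the growth factor receptor gene Fgfr2 and the P-cadherin gene Cdh3 had −1.93 and −1.90. The smallest differences were those of Sfn, which encodes 14-3-3 sigma, at −1.09 and of the laminin gene Lamb3 at −1.10. Several of these genes are basal markers as well, and the list was drawn up with earlier results of these data known, so its count is not independent of the direction of Trp63.

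The relatives of the 3 genes were for the most part in neither table. In the p53 family Trp63 was listed, and Trp53 and Trp73 were not. In the Snail family Snai2 was listed, while Snai1, Snai3, Scrt1 and Scrt2 were not. Of 6 transcription factors of epithelial mesenchymal transition, 1 was listed, Snai2, and Snai1, Zeb1, Zeb2, Twist1 and Twist2 were in neither table. The study reports a signature of this transition among its lower genes, from a gene set that was not used here. A gene in neither table may have been lowly expressed, changed little or varied too much between samples to pass, and these cases were not told apart. How many genes the authors tested is not given in the sources used here, so the share of all tested genes that were listed is unknown. Of the listed genes, 86.9% were lower. Of 17 TALE homeobox genes, 14 were in neither table and 3 were listed, all 3 as lower and 0 as higher. These were Mkx and the Iroquois genes Irx4 (log2 ratio −1.90, from 34.5 CPM in WT.GFP+ to 9.22 CPM without ERα) and Irx1 (−1.22).

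Among 9 transcription factors of mammary basal cells, 3 were listed. All 3 of these were lower and 0 higher, and 86.9% of all listed genes were lower too. Beside Trp63 and Snai2 this was Id4, which encodes an inhibitor of helix-loop-helix factors, with a log2 ratio of −1.99 and levels of 61.2 CPM in WT.GFP+ and 15.4 CPM in ERα−/−.GFP+ MECs. Egr2, Sox10, Mef2c, Myocd, Srf and Bcl11b were in neither table. Of 13 luminal transcription factors, 1 was listed, the progesterone receptor gene Pgr, as lower, at 4.76 and 1.24 CPM. The other 12, among them Gata3, Elf5, Foxa1 and Esr1 itself, were in neither table.

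Lists of genes known to be repressed by SNAI2 and of tendon genes linked to MKX were largely outside the tables, in which 86.9% of all listed genes were lower. Of 8 junction and luminal genes that SNAI2 is known to repress, 0 were higher and 1 was lower in ERα−/−.GFP+ MECs. That gene was the desmoplakin gene Dsp, with a log2 ratio of −1.74, which is also in the list of p63 targets. Cdh1, Cldn1, Ocln, Krt8, Krt18, Krt19 and Jup were in neither table. Of 9 tendon genes linked to MKX, 2 were lower and 0 higher. These were Scx, which encodes the tendon factor scleraxis, at 5.54 and 1.66 CPM, and Fmod, which encodes the matrix proteoglycan fibromodulin, at 294 and 71.8 CPM with a log2 ratio of −2.03. The fibrillar collagen genes Col1a1, Col1a2 and Col3a1 and Dcn, which are abundant in fibroblasts, were in neither table.

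**Figure D4:**
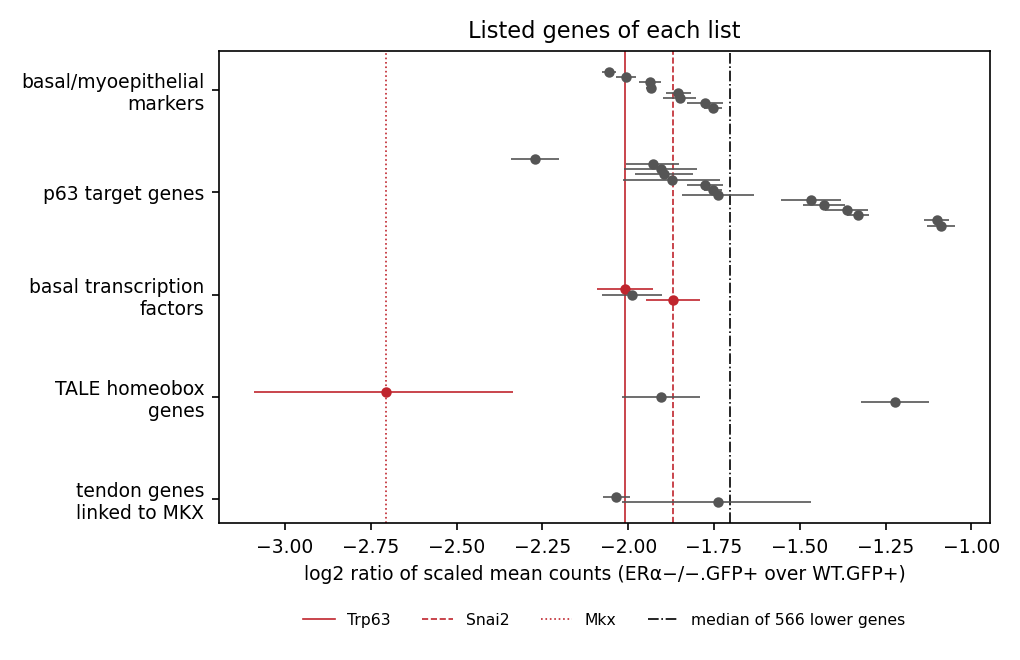
Log2 ratio of scaled mean counts (x axis, ERα−/−.GFP+ over WT.GFP+) of the listed genes of 5 lists (rows); points are genes, bars are 95% counting intervals, Trp63, Snai2 and Mkx are red, and lines mark their ratios and the median of the 566 lower genes. The 8 basal markers lie between −2.06 and −1.75, a range that holds Trp63 (−2.01) and Snai2 (−1.87), whereas Mkx (−2.70) lies to the left of every other gene shown.

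Trp63 and Snai2 were next set against the basal markers of the same samples. The log2 ratios of the 8 markers lay between −2.06 for Myh11, smooth-muscle myosin, and −1.75 for Krt14, with a median of −1.89. Per 1000 reads of the summed markers, Trp63 had 11.8 reads in WT.GFP+ against 11.2 reads in ERα−/−.GFP+ MECs, and Snai2 had 11.5 and 12.04. Relative to the markers these are log2 ratios of −0.07 for Trp63 and 0.06 for Snai2. Mkx had 0.857 and 0.502 reads per 1000 marker reads, a log2 ratio of −0.77 relative to the markers, and each of the 8 markers had a higher ratio than Mkx. Trp63 and Snai2 thus differed between the genotypes by about as much as these 8 markers did, and Mkx by more. The markers are all lower genes, from a list chosen with earlier results of these data known. Ratios of the listed p63 targets, several of them basal too, spread wider, from −2.27 to −1.09. The markers are also more abundant than Mkx, at 144 to 2662 CPM in WT.GFP+. Lower genes near the WT.GFP+ level of Mkx had a median log2 ratio of −1.81, beside −1.48 near that of Trp63. Whether the distance of Mkx from the markers exceeds the spread between samples was not tested.

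Listed genes near the 3 genes on the chromosome were sought within 1 Mb of the annotated start. Around Trp63, 1 of 14 other annotated genes was listed, Gm4524, whose start lies 273 kb downstream. Gm4524 is annotated as antisense in type, but it lies on the plus strand, as Trp63 does, from 25956475 to 25960342. Its mean counts were 25 reads in WT.GFP+ against 7.33 reads in ERα−/−.GFP+ MECs. Whether the counting used strand is not given in the sources used here, so its reads are uncertain. Around Snai2, 2 of 43 genes were listed. Efcab1, 201 kb away, had a log2 ratio of −1.93, and Myh11, one of the basal markers, 414 kb away on the other strand, had −2.06. Both were lower in ERα−/−.GFP+ MECs, as were Snai2 and 86.9% of all listed genes. Around Mkx, 0 of 32 other genes were listed.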

How the data were processed

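RNA of sorted GFP+ MECs was sequenced in 3 WT.GFP+ and 3 ERα−/−.GFP+ samples. Alignment to mm10 of the single-end reads was done by the authors in HTSstation, and their filter for expressed genes and their edgeR comparison of the genotypes in ASAP. The counter, the annotation and the use of strand are not given in the sources used here. They deposited only genes past their thresholds (more than 2-fold, FDR under 0.05), as 1 table per direction. The deposited mean count is their mean of raw counts over the samples of a group, and the deposited mean log2 CPM is their mean of library-size scaled values on the log2 scale. The tables also hold the authors' fold changes, p-values and FDR, which were not used.

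Depth per group was the median of mean count over mean CPM among genes whose mean count reached 1000 (220 genes in WT.GFP+, 140 in ERα−/−.GFP+). Mean counts were scaled by it. Totals are mean counts times 3. Intervals are 95% exact Poisson for a level and exact binomial (Clopper-Pearson) for a ratio of totals, and those of a difference between 2 ratios use a normal approximation to the counts. The calculation was tested on simulated data. No test was run, since the files hold group means only. Symbols are the deposited ones, and positions and exons came from GENCODE M21 (GRCm38, the assembly of mm10), matched by Ensembl identifier for 650 of 651 genes. Calculations used scipy 1.17.1, pandas 2.3.3 and numpy 2.4.6 under Python 3.11.15, and figures matplotlib 3.10.9.

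The 3 genes, the gene lists and the rules were chosen with earlier results of these data known. The list of TALE genes is not complete, as 1 gene of it is not reported here. Named genes were the 3 genes, listed members of the gene lists, the 3 nearest genes by group means, and listed genes within 1 Mb. Alternatives were the difference of mean log2 CPM, counts without scaling, depth from genes whose mean count reached 100, a filter on mean counts of 10 and matching through synonyms.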

Additional observations from a re-analysis of the deposited data

How the results depend on the processing

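All 3 genes were lower in ERα−/−.GFP+ MECs under each scaling tried. From the difference of mean log2 CPM, the log2 ratio of Trp63 was −1.82 in place of −2.01, its position among the lower genes was 245 in place of 130, and that of Mkx was 62 in place of 37. With mean counts not scaled for depth, the log2 ratio was −1.90 for Trp63 and −1.76 for Snai2. With a mean count of 10 required in both groups, Trp63 was at position 73 and Mkx at 8, since fewer genes were ranked. The number of genes around Trp63 with a lower ratio was 5 from mean counts and 30 from mean log2 CPM, an alternative added after the data were seen. The depth from genes whose mean count reached 100 and the matching of synonyms moved no value beyond its counting interval or by more than 1.5 times. No paired analysis was possible because the genotypes share only 1 replicate number and the columns hold group means. For the same reason fits without each replicate were not run. Mkx rests on 70 reads in ERα−/−.GFP+ MECs, which sets the width of its interval.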
